A study of Homo sapiens with 9 samples.

Results

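Cultures of one cell line can differ from each other whatever their treatment. The comparison described here sets culture number 1 against culture numbers 2 and 3 of U251, an established human glioma line, on 9 Affymetrix expression arrays. Each treatment group had an array of number 1, of number 2 and of number 3, so culture number 1 was 3 of the 9 arrays and the other numbers were 6. One group received an siRNA against WT1 with the transfection reagent Oligofectamine, the next a non-targeting (scrambled) siRNA with Oligofectamine, and the third Oligofectamine alone. Both siRNAs came from Dharmacon and were used at 100 nM for 4 h in plates with 6 wells. All cells, the controls included, were therefore exposed to the transfection reagent, and no untreated cells were measured. The number is the last digit of an array's title. The labels call for triplicates but do not say whether a number stands for a day, a plate, an RNA extraction or a labelling run. The p-values below measure the spread between these arrays. Arrays of one number share whatever the number stands for, and 1 number against 2 others could not reach a p below 0.333 if the numbers were permuted as whole units.

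Cultures of one line can drift apart in density, nutrient supply, handling and cell cycle. Several stress programs follow such conditions. In the unfolded protein response, misfolded protein in the endoplasmic reticulum activates the sensors PERK, IRE1 and ATF6, which raise chaperones such as HSPA5 (BiP). PERK and the amino acid sensor GCN2 slow translation and favour ATF4, a transcription factor that induces amino acid synthesis and transport genes. The heat shock response, driven by HSF1, raises cytosolic chaperones. In glioma, these programs are studied as responses to poor oxygen and nutrient supply.

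Known recognition sequences of these 3 programs stood in promoters of genes that were lower in culture number 1, and 7 windows of genes that were lower are shown, as examples of the elements these programs are known for. The windows were taken from RefSeq promoters (GRCh38.p14, 250 bases before to 50 after each gene's start), run 5′ to 3′ on the gene's strand and lie upstream of the start. Capitals mark the match. Matches on both strands were searched, and a match is a description of letters, not of a bound site.

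The endoplasmic reticulum stress element (CCAAT, then 9 bases of any kind, then CCACG) is read by ATF6 together with NF-Y. It stood in 0.0806% of all 27305 promoters, in 0.125% of those of the measured genes, in 0.266% of those of all genes called lower, and in 6 of the 31 promoters found for the unfolded protein response list (19.4%). Of the 15 promoters of list genes lower in culture number 1, 3 held it (20%), close to the share of the whole list. They belong to HSPA5, the main chaperone of the endoplasmic reticulum (chr9:125241351-125241449, minus strand), CANX, the lectin chaperone calnexin (chr5:179698738-179698836, plus strand), and XBP1, the transcription factor spliced by IRE1 (chr22:28800570-28800661, minus strand).
HSPA5: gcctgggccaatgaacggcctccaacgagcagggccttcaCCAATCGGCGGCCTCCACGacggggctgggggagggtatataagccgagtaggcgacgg
CANX: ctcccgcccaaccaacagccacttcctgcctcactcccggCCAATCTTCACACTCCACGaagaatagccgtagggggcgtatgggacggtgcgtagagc
XBP1: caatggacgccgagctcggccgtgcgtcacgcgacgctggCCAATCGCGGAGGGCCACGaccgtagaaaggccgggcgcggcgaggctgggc

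The amino acid response element, TGATGNAA, is read by ATF4 with a C/EBP partner. It stood in 3.67% of all promoters, in 2.25% of those of the measured genes, in 1.6% of those of all genes called lower, and in 10 of 35 promoters of the ATF4 target list (28.6%). It stood in 4 of the 14 of that list's genes that were lower, the same share. The examples are ASNS, which makes asparagine (chr7:97872429-97872516, minus strand), and ATF3, a stress-induced transcription factor (chr1:212565176-212565263, plus strand).
ASNS: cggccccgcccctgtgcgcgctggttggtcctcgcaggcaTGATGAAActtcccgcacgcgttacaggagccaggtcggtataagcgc
ATF3: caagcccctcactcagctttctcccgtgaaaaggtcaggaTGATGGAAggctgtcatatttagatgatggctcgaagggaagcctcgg

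The heat shock element searched (GAA, TTC and GAA, each 2 bases of any kind apart) stood in 0.487% of all promoters, in 0.376% of those of the measured genes, in 0.466% of those of all genes called lower, in 3 of 24 promoters of the heat shock list (12.5%) and in 3 of the 10 of its lower genes. The examples are DNAJB6, a co-chaperone (chr7:157336833-157336925, plus strand), and CHORDC1, a partner of HSP90 (chr11:90223050-90223149, minus strand), whose window held 3 overlapping matches over both strands. DNAJA1, another co-chaperone, also held the element.
DNAJB6: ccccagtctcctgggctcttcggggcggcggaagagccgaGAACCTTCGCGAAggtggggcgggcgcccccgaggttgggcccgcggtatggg
CHORDC1: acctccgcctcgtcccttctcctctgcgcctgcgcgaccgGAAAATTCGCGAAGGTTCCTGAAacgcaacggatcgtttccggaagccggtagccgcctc

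Expression was given as log2 values per probe set after RMA (robust multi-array average). Of the probe sets, 19064 matched exactly 1 gene symbol and covered 11963 genes. A gene was read from its brightest probe set, the one with the highest mean over the 9 arrays. Array medians lay between 6.45 and 6.53. In bulk RNA, fewer cells of a type and less RNA per cell cannot be told apart. For arrays, their number limits the precision.

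Over all tested probe sets, the contrast of culture number 1 with the other numbers held 46.2% of the sum of squares. The contrast of number 2 with number 3 held 25% and the treatment 15.9%. The first principal component (46.9% of the variance) placed the arrays of number 1 at 25.5 to 28.8 and the others at −18.1 to −7.84, without overlap. The second (25.6%) placed number 2 at 15 to 18.3 and number 3 at −22.1 to −14.1. For 7458 of 11963 genes (62.3%) the sum of squares for culture number 1 was larger than that for treatment.

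**Figure D1:**
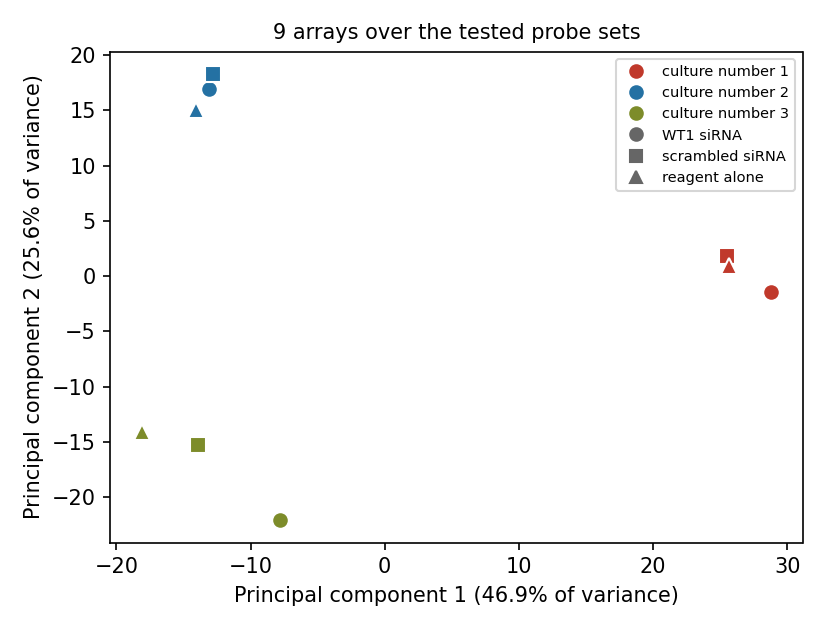
Scores of the 9 arrays on the first 2 principal components of the log2 values, with colour for the culture number and shape for the treatment. The 3 arrays of number 1 lie at 25.5 to 28.8 on the first component, apart from the 6 others.

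The control probe sets of the array also separated culture number 1, before any gene is considered. A signal near the 3′ end of a transcript that exceeds the signal near its 5′ end reflects RNA or labelled product that does not reach the 5′ end. For ACTB (actin) the log2 difference of the 3′ over the 5′ probe set was 0.0773, 0.0507 and 0.0887 in number 1, and 0.26, 0.529 and 0.677 (lowest, median and highest) in the others. For GAPDH the number 1 arrays spanned −0.0249 to −0.00564 and the others 0.0953 to 0.184. The groups overlapped for neither transcript (exact permutation test of 3 arrays against 6, two-sided, p = 0.0119, the smallest it allows, adjusted p = 0.0221 over 13 control values).

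The dap, thr, phe and lys transcripts are bacterial RNAs added to the sample from outside, so their ends do not depend on the cells. Their 3′ to 5′ difference was lower in number 1 as well: dap lay at 1.65 to 1.74 against 2.13 to 2.56 (adjusted p = 0.0221, exact permutation test), thr at 1.83 to 1.99 against 2.02 to 2.68 and phe at 1.46 to 1.78 against 1.77 to 2.21 (both adjusted p = 0.0387). The ranges of phe overlapped slightly and those of lys clearly (lys p = 0.167, exact permutation test). The hybridisation control bioD, added just before the array step, was at 11.6 to 11.7 against 12.1 to 12.4 (adjusted p = 0.0221). The 5′ probe set of 28S ribosomal RNA was at 10 to 10.3 in number 1, at 8.44 to 8.59 in number 2 and at 5.49 to 6.08 in number 3 (number 1 against both, adjusted p = 0.031).

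These control values moved with the culture number, so what differed between the cells and what differed in RNA quality, labelling or hybridisation cannot be told apart in any result below. With the mean ACTB and GAPDH difference as a covariate, 4240 probe sets were called, of which 1421 were among those called without it with the same sign. Of 106 genes followed through the alternatives, 87 were called without the covariate. With it 37 of these did not pass, and 4 of the 37 turned in sign. Among the genes not called without it, GFAP (−4.92), DDIT4 (−1.93), NES (−1.68), SOX2 (−1.37) and CD44 (0.46) passed with it. For neither ACTB nor GAPDH did numbers 1, 2 and 3 overlap (ACTB 0.0507 to 0.0887, 0.554 to 0.677 and 0.26 to 0.505). The covariate thus largely followed the number. A gene that differs between numbers 2 and 3 can be shifted by it in number 1. Values with the covariate, here and below, therefore cannot decide whether a difference lay in the cells.

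**Figure D2:**
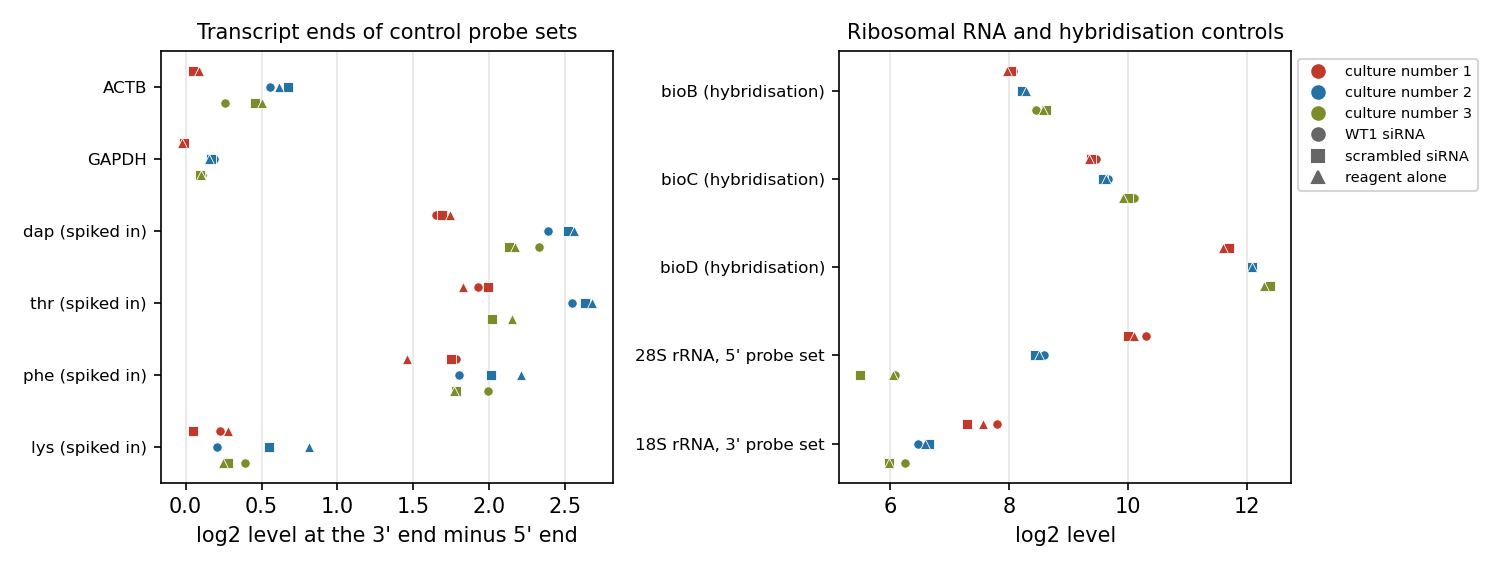
Left, log2 level at the 3′ end minus the 5′ end for 2 human and 4 spiked-in control transcripts. Right, log2 levels of hybridisation controls and ribosomal RNA. Each point is an array, with colour for the culture number and shape for the treatment. Number 1 lies below all other arrays for ACTB, GAPDH, dap and thr, and above them for both ribosomal RNAs.

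Culture number 1 differed from numbers 2 and 3 in 4686 of 19064 probe sets (24.6%) at an adjusted p under 0.05 in limma with treatment as a factor. Of these, 2068 were higher (10.8%) and 2618 lower (13.7%). By gene, 2941 of 11963 differed (24.6%), 1152 higher (9.63%) and 1789 lower (15%). The 3 arrays of number 1 lay beyond all 6 others for 3207 genes (26.8%). The median difference over all genes was 0.017. Leaving out an array of number 1 moved the count of probe sets by more than 1.5 times: 2690 without the WT1 siRNA array, 2256 without the scrambled siRNA array and 1963 without the reagent array.

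The direction of the calls moved with the level of the gene. Genes were placed in 5 groups of like size by mean level, from dim to bright. In group 2, 16.4% were higher and 5.06% lower, with a median difference of 0.119. In group 4, 6.02% were higher and 27.7% lower, with a median of −0.146. The spread of values within an array was also narrower in number 1, with an SD of 2.05 to 2.06 against 2.08 to 2.12. After quantile normalisation, which gives every array the same spread, the medians of the 5 groups lay between −0.0258 and 0.044, and 4096 probe sets were called, 2007 higher and 2089 lower. Restricted to the brighter probe sets, 997 were higher and 2221 lower, so that 31% of the calls were higher against 44.1% over all probe sets.

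WT1, the zinc finger factor that the siRNA targets, did not pass between culture number 1 and the others. Its level was 4.76 with the WT1 siRNA, 5.59 with the scrambled siRNA and 6.05 with reagent in number 1, and 4.82, 5.65 and 6.58 (lowest, median, highest) in the 6 others. The difference was −0.15 (SE 0.16, adjusted p = 0.544). Against number 2 alone it was −0.39 (adjusted p = 0.00488) and against number 3 alone 0.09 (adjusted p = 0.402). A second probe set lay at 0.20 and did not pass, and with the 3′ to 5′ covariate the brightest turned to 0.59 and did not pass. In number 1 the WT1 siRNA array was the lowest of the 3, as it was in number 2 (5.09 against 5.89 and 6.58) and in number 3 (4.82 against 5.41 and 5.89). ADGRE5, which encodes the adhesion receptor CD97, stood at 7.73, 8.70 and 8.64 in number 1 and at 7.84, 8.51 and 8.67 in the others (difference −0.03, adjusted p = 0.873).

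Whether culture number 1 stood apart by another amount in one treatment than in another was tested with an interaction term. By limma 0 of 19064 probe sets passed (0%), and 262 had an unadjusted p under 0.05 (1.37%). Culture number 1 had 1 array per treatment.

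FCF1, a factor of ribosome assembly, had the largest rise in culture number 1 among the genes whose arrays did not overlap. It had values of 7.68, 7.64 and 7.76 in number 1 (WT1 siRNA, scrambled siRNA and reagent, the order used throughout) and 5.02, 5.67 and 6.18 in the others (lowest, median and highest). The ranges did not overlap, as the choice of these genes required, and the difference was 2.02 (SE 0.25, adjusted p = 0.00142, 4.06-fold). Another probe set of FCF1 gave −0.14 and did not pass.

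EDIL3, a secreted integrin ligand, stood at 9.52, 9.15 and 9.18 against 7.47, 7.72 and 8.09. It was higher by 1.54 (SE 0.10, adjusted p = 0.00015). PDGFRA, the receptor for platelet-derived growth factor that is often amplified in glioma, stood at 12.37, 11.32 and 11.72 against 9.67, 10.32 and 10.65. The difference was 1.53 (SE 0.23, adjusted p = 0.00313), and of its other probe sets one rose by 0.80 and the other did not pass (0.01). CXCL12, a chemokine that attracts cells carrying CXCR4, stood at 7.79, 8.22 and 7.52 against 6.09, 6.60 and 6.78, a difference of 1.33 (SE 0.14, adjusted p = 0.000733), with a second probe set higher by 0.59. With the 3′ to 5′ covariate PDGFRA was at 0.84 and did not pass (adjusted p = 0.2545).

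TRAF4, an adaptor of receptor signalling, was at 8.44, 8.22 and 7.90 against 6.77, 6.88 and 6.995 (difference 1.32, adjusted p = 0.000177). PRMT1, the main arginine methyltransferase for asymmetric dimethylation, was nearly constant in number 1 at 11.28, 11.24 and 11.27 against 9.83, 9.98 and 10.42 (1.23, adjusted p = 0.000547). The remaining genes of the 12 were TMEM259 (1.43), GASK1B (1.36), BSG (1.35), GTF2H4 (1.31), EPHX1 (1.295) and SERPINA3 (1.23). BSG, the surface glycoprotein basigin, stood at 10.09, 10.06 and 10.08 against 8.15, 8.70 and 9.31. It lay lower in number 2 (mean 8.32) than in number 3 (9.14), and so did EPHX1, the microsomal epoxide hydrolase (7.95 and 8.99). Both turned in sign when the 3′ to 5′ difference was a covariate, BSG to −0.24 and EPHX1 to −0.60, and neither passed there, nor did TMEM259 (0.97). BSG also did not pass without the scrambled siRNA or the reagent array of number 1 (adjusted p = 0.0543 and 0.0585), nor EPHX1 without any one array of number 1 (adjusted p = 0.0845 to 0.145).

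Among the genes that were lowest in culture number 1, also chosen for arrays that did not overlap, PLAGL1 led. It encodes an imprinted zinc finger protein with growth-restraining activity. Its values were 6.90, 6.94 and 7.05 against 8.59, 8.73 and 8.999, and its difference was −1.79 (SE 0.09, adjusted p = 6.45e-05, 3.47-fold). Its other probe sets fell by 1.64 and 1.24. BASP1, a membrane protein of growing neurites that also binds WT1 as a corepressor, stood at 7.66, 7.86 and 7.53 against 8.87, 9.35 and 9.67. It fell by 1.63 (SE 0.16, adjusted p = 0.000581).

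TERF1, a subunit of the telomere-capping complex, was at 7.88, 7.78 and 7.70 against 8.94, 9.06 and 9.07, and it fell by 1.26 (SE 0.06, adjusted p = 6.45e-05). The 6 other arrays lay within a narrow range for this gene. Its second probe set fell by 0.37. FOXF1, a forkhead factor of mesenchyme, was at 7.25, 7.73 and 7.47 against 8.62, 8.67 and 8.76 (−1.20, adjusted p = 0.000266). The other genes lowest in number 1 were ARMCX1 (−1.62), the adhesion receptor ADGRL2 (−1.47), the organic anion transporter SLCO1B3 (−1.43), ENO2 (−1.40), NUCB2 (−1.38), the secreted pattern receptor PTX3 (−1.36), the complement inhibitor CD55 (−1.28) and ZEB2 (−1.22), a repressor of epithelial genes. ENO2, the enolase of neurons, differed more from number 3 than from number 2 (−2.01 and −0.79), and its adjusted p was 0.0318. It did not pass without any one array of number 1, or without the scrambled siRNA or the reagent array of number 3 (adjusted p = 0.0564 to 0.136). With the 3′ to 5′ covariate ADGRL2 (−0.48), PTX3 (−0.41), CD55 (−1.015) and ZEB2 (−0.27) did not pass.

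**Figure D3:**
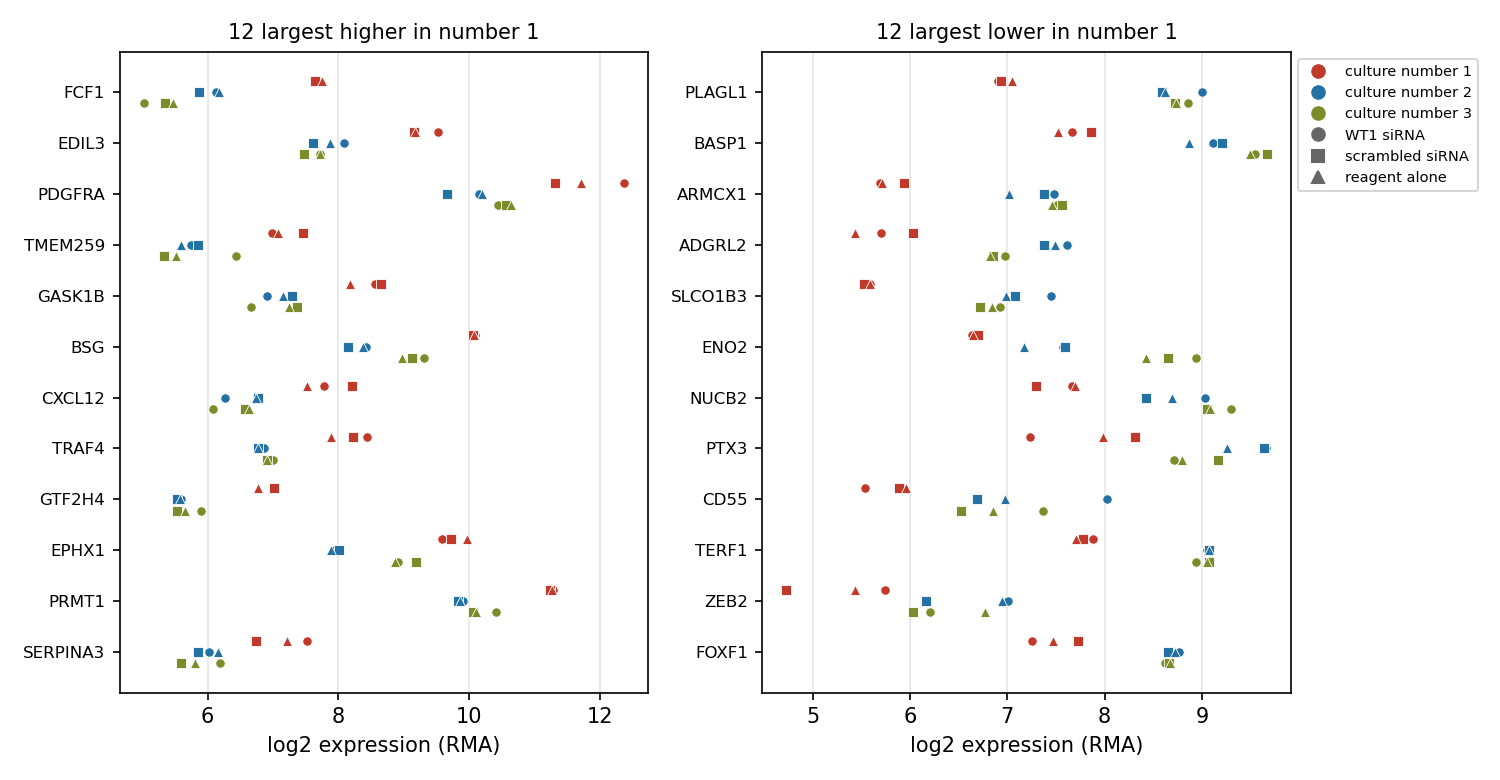
Log2 expression of the 12 genes with the largest rise (left) and the largest fall (right) in culture number 1 among genes whose arrays did not overlap. Each point is an array, with colour for the culture number and shape for the treatment. For TERF1 the 6 arrays of numbers 2 and 3 lie between 8.94 and 9.07, and those of number 1 between 7.70 and 7.88.

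Many genes of the unfolded protein response were lower in culture number 1. Of 33 measured members of the list, 16 fell (48.5%) and 3 rose, where 15% of all genes fell and 9.63% rose. These shares are not matched for level: of all genes in groups 4 and 5 by level, 27.7% and 21.5% fell. The level of list members was not taken into account for this list or those below. The list median was −0.36 against 0.017 over all genes. Against number 2 alone 16 fell and 2 rose (over all genes 23.7% and 15.4%), with a median of −0.22, and against number 3 alone 22 fell and 4 rose (21.8% and 17.3%), with a median of −0.37. Both comparisons share the arrays of number 1.

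HSPA5 stood at 11.65, 11.89 and 12.24 in number 1 and at 12.40, 12.71 and 12.78 in the others, and it fell by 0.72 (SE 0.13, adjusted p = 0.00566, 1.65-fold). All 3 arrays of number 1 were below all others, the reagent array least so. DNAJC10, a reductase that works with HSPA5, was at 8.62, 8.46 and 8.68 against 9.09, 9.15 and 9.27 and fell by 0.57 (adjusted p = 0.00113), while its other probe set did not pass (−0.09). CANX was at 11.74, 11.55 and 11.77 against 11.87, 12 and 12.14 and fell by 0.33 (adjusted p = 0.00459). Its other 2 probe sets lay above 0 (0.05 and 0.20) and did not pass. XBP1 was at 7.64, 7.79 and 8.25 against 8.40, 8.77 and 9.29 and fell by 0.88 (adjusted p = 0.00733).

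Other members that fell act at or after the sensors. EIF2AK3, which encodes PERK, fell by 0.38 (adjusted p = 0.0393) and ATF4 by 0.50 (adjusted p = 0.013). DDIT3, the transcription factor CHOP, was at 8.97, 8.92 and 8.90 against 9.08, 9.22 and 9.66 and fell by 0.36 (adjusted p = 0.0462). HERPUD1 and SEL1L, both of the machinery that removes misfolded proteins, fell by 0.72 and 0.48 (adjusted p = 0.0113 and 0.0297). DNAJB9, a co-chaperone induced through IRE1, fell by 0.82 (adjusted p = 0.0175). The 3 members that rose were PDIA3 and the sensors ATF6 (0.28, adjusted p = 0.0073) and ERN1, which encodes IRE1 (0.26, adjusted p = 0.0487). PDIA3, a disulfide isomerase of glycoprotein folding, was at 11.41, 11.21 and 10.97 against 10.11, 10.46 and 10.83 and rose by 0.72 (SE 0.09, adjusted p = 0.00157).

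The count of lower members depended on the arrays, as did that over all probe sets. Without the WT1 siRNA, scrambled siRNA or reagent array of number 1, 1594, 1465 and 1247 probe sets were lower, against 2618 with all arrays. Those higher were 1096, 791 and 716, against 2068. With the covariate 2420 were lower and 1820 higher. List counts here and below moved beside these. In this list, 5 members were lower without the WT1 siRNA array of number 1 and 8 without its scrambled siRNA array. The count was 10 without its reagent array and 11 after quantile normalisation. Without the reagent array of number 1, 1 member rose. With the 3′ to 5′ difference as a covariate 14 fell and 0 rose, and XBP1 (−0.69) and PDIA3 (0.32) did not pass. DDIT3 did not pass without 7 of the 9 arrays in turn (adjusted p = 0.0512 to 0.193), among them every array of number 1. Of 9 called members with another probe set, 4 had one called the same way and 2 one called the opposite way.

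The ATF4 targets of amino acid metabolism shifted in the same direction. Of 40 measured members, 15 fell (37.5%, against 15% of all genes) and 0 rose, and 36 had a difference below 0. The median was −0.33. Against number 2 the counts were 19 lower and 1 higher (over all genes 23.7% and 15.4%). Against number 3 they were 22 and 0 (21.8% and 17.3%). DDIT3 and ATF4 are in both this list and the previous one.

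TRIB3, a pseudokinase induced by ATF4 and CHOP, stood at 7.92, 8.34 and 8.77 in number 1 and at 8.89, 9.44 and 9.89 in the others, a difference of −1.10 (SE 0.23, adjusted p = 0.0111, 2.14-fold). ASNS stood at 7.54, 7.64 and 8.16 against 7.98, 8.89 and 9.28. Its ranges overlapped, since the reagent array of number 1 exceeded the lowest other array, and it fell by 0.98 (SE 0.26, adjusted p = 0.027). It did not pass without the WT1 siRNA or the scrambled siRNA array of number 1, or without the reagent array of number 3 (adjusted p = 0.0555 to 0.145). CEBPG, a partner of ATF4, was at 6.83, 6.73 and 7.12 against 7.35, 7.66 and 7.94 and fell by 0.75 (SE 0.10, adjusted p = 0.00156).

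XPOT exports transfer RNA from the nucleus. It stood at 10.24, 10.18 and 10.44 against 10.85, 10.95 and 11.21 and fell by 0.69 (adjusted p = 0.00108). PSPH, the last enzyme of serine synthesis, fell by 0.71 (adjusted p = 0.00319), and STC2, a secreted glycoprotein, by 0.84 (adjusted p = 0.0055), both with overlapping ranges and with a second probe set that did not pass. ATF3 was at 5.53, 5.73 and 5.87 against 5.90, 6.08 and 6.26 and fell by 0.37 (adjusted p = 0.0376), a call lost without 6 of the 9 arrays in turn (adjusted p = 0.0504 to 0.192), the WT1 siRNA and scrambled siRNA arrays of each number. DDIT4, an inhibitor of mTORC1, was at 8.36, 7.89 and 8.38 against 7.92, 8.83 and 9.26 and did not pass (−0.52, adjusted p = 0.179). With the 3′ to 5′ covariate DDIT4 passed (−1.93).

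The count of ATF4 targets that fell was 6 without the WT1 siRNA array of number 1, 8 without its scrambled siRNA array, 12 without its reagent array, 11 after quantile normalisation and 16 with the covariate, where XPOT (−0.61), CEBPG (−0.52) and ATF3 (−0.49) did not pass.

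Heat shock genes were called in both directions. Of 28 measured, 11 fell (39.3%, against 15% of all genes) and 3 rose (10.7%, against 9.63%), with a median of −0.13. CHORDC1 was at 9.57, 9.69 and 9.82 in number 1 and at 10.05, 10.44 and 10.63 in the others, a difference of −0.71 (SE 0.11, adjusted p = 0.00306). DNAJA1 was at 11.34, 11.56 and 11.57 against 11.77, 11.95 and 12.05, a difference of −0.43 (adjusted p = 0.00122), and its second probe set fell by 0.53. DNAJB6 was at 7.72, 7.63 and 8.12 against 8.19, 8.45 and 8.77, a difference of −0.66 (adjusted p = 0.0113). HSF1 itself, the transcription factor of the response, fell by 0.40 (adjusted p = 0.0168).

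HSPA4, a nucleotide exchange factor for HSP70, was at 9.96, 10.02 and 10.06 against 10.46, 10.56 and 10.69 in its brightest probe set and fell by 0.56 (adjusted p = 0.000615). Its probe sets disagreed: one more fell by 0.54, another rose by 0.60 (adjusted p = 0.000451) and the last did not pass (0.18). The direction for this gene is therefore uncertain. Of 7 called members of the list with another probe set, 2 had one called the same way and 3 one called the opposite way. The members that rose were small heat shock proteins, CRYAB (6.37, 6.25 and 6.26 against 5.78, 5.94 and 5.99, a rise of 0.39, adjusted p = 0.00471) and HSPB1 (0.56, adjusted p = 0.0189), and the co-chaperone DNAJA4 (0.27, adjusted p = 0.0402). The count of lower heat shock genes was 5, 4 and 6 without the WT1 siRNA, scrambled siRNA and reagent array of number 1, 8 after quantile normalisation and 5 with the covariate, where CHORDC1 (−0.13), DNAJB6 (−0.019) and CRYAB (0.22) did not pass. DNAJB6 also did not pass without the WT1 siRNA or the scrambled siRNA array of number 1 (adjusted p = 0.0715 and 0.0707). In each of the 3 cases 1 member rose.

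**Figure D4:**
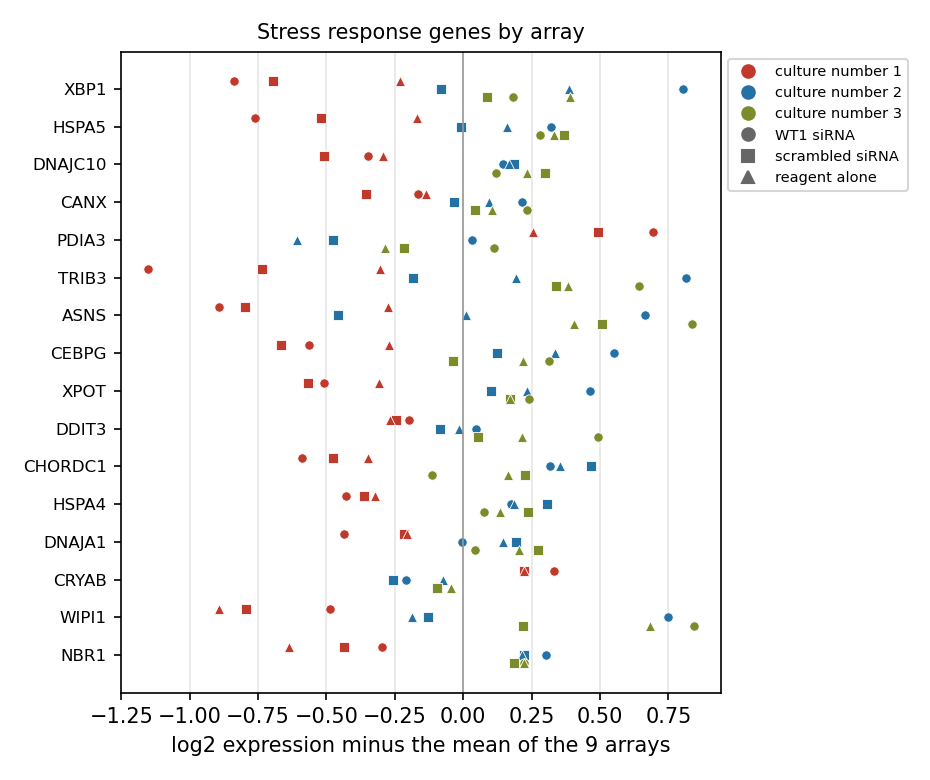
Log2 expression of 16 stress response genes, each minus its mean over the 9 arrays, with colour for the culture number and shape for the treatment. PDIA3 and CRYAB lie to the right of 0 in all 3 arrays of number 1, and the other 14 to the left.

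Autophagy genes, which recycle cytoplasm and are induced by starvation, fell in 10 of 30 cases (33.3%, against 15% of all genes). None rose, and the median was −0.19. WIPI1, which binds the forming autophagosome, was at 7.05, 6.75 and 6.65 in number 1 and at 7.36, 7.99 and 8.38 in the others, a difference of −1.09 (SE 0.18, adjusted p = 0.00471). NBR1, a cargo receptor, was at 8.16, 8.02 and 7.82 against 8.65, 8.68 and 8.76, a difference of −0.68 (adjusted p = 0.000506), but its second probe set did not pass and lay at 0.15. OPTN, another cargo receptor, fell by 0.46 and ULK1, the initiating kinase, by 0.51 (adjusted p = 0.00185 and 0.00971). A dimmer OPTN probe set did not pass (−0.32). Without the WT1 siRNA array of number 1, 6 genes fell, and without its scrambled siRNA or its reagent array 4, where ULK1 did not pass in the last case (adjusted p = 0.0771). After quantile normalisation 8 fell and 4 rose, and with the covariate 6 fell and 3 rose with a median of −0.00121, and OPTN (−0.28) and ULK1 (−0.74) did not pass.

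Hypoxia response genes fell in 7 of 28 cases (25%) and rose in 2, with a median of −0.19. Of all genes 15% fell, and of those in group 4 by level 27.7%. KDM3A, a histone demethylase induced by HIF1, was at 7.71, 7.37 and 7.50 against 8.05, 8.27 and 8.54, a difference of −0.74 (adjusted p = 0.0024). EGLN1, the oxygen sensor that marks HIF for degradation, fell by 0.56 (adjusted p = 0.00421), and PLOD2, which hydroxylates collagen lysines, by 0.43 (adjusted p = 0.00165). The members that rose were the glucose transporter SLC2A1 (0.33, adjusted p = 0.0232) and the cytokine MIF (0.20, adjusted p = 0.0381). When any one array of number 1 was left out, 0 members rose, and with the covariate EGLN1 did not pass (−0.68).

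Feedback regulators of the ERK pathway and immediate early genes are induced by growth factor signalling. Of 19 feedback regulators, 7 fell (36.8%, against 15% of all genes) and 1 rose, PHLDA1 (0.25, adjusted p = 0.0364), with a median of −0.31. Against number 2 alone 9 fell and 0 rose (over all genes 23.7% and 15.4%), with a median of −0.05. Against number 3 alone 11 fell and 1 rose (21.8% and 17.3%), with a median of −0.36. SPRED2, an inhibitor of RAF activation, was at 8.08, 8.21 and 7.92 against 8.80, 8.92 and 9.05, a difference of −0.84 (SE 0.08, adjusted p = 0.000462), while its 2 dimmer probe sets lay above 0 (0.22 and 0.07) and did not pass. The phosphatase DUSP4 fell by 0.65 (adjusted p = 0.00318), with a second probe set lower by 1.00, and DUSP5 fell by 0.86 with overlapping ranges (adjusted p = 0.00416). CCND1, the G1 cyclin that growth factors induce, was at 10.52, 11.12 and 10.81 against 11.28, 11.49 and 11.55, a difference of −0.63 (adjusted p = 0.00375), though its second probe set did not pass (0.05). Without the reagent array of number 1, 4 feedback regulators fell, and after quantile normalisation 4 fell and 2 rose. When any one array of number 1 was left out, 0 rose. With the covariate DUSP4 (−0.29) and DUSP5 (−0.24) did not pass. Of 7 called members with another probe set, 3 had one called the same way and 1 the opposite way.

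Of 28 immediate early genes, 8 fell (28.6%) and 1 rose, NR4A1 (0.27, adjusted p = 0.03), but the list median of −0.04 was near that of all genes. Over all genes 15% fell, and in group 4 by level 27.7%. Against number 2 alone 11 fell and 4 rose (over all genes 23.7% and 15.4%), with a median of −0.08. Against number 3 alone 11 fell and 5 rose (21.8% and 17.3%), with a median of 0.02. MAFF, a small MAF protein, was at 6.91, 6.41 and 6.03 against 7.24, 7.36 and 8.05, a difference of −1.05 (SE 0.10, adjusted p = 0.000493). EGR1, a zinc finger factor, was at 5.74, 5.603 and 5.78 against 6.03, 6.28 and 6.42, a difference of −0.55 (adjusted p = 0.00113), with a second probe set that did not pass (0.15). KLF10 fell by 0.75 (adjusted p = 0.0014) and IER5 by 0.65 (adjusted p = 0.00524), and with the covariate they did not pass (−0.24 and −0.32). The number lower was 5 without the WT1 siRNA or the reagent array of number 1, and 0 rose when any one of its arrays was left out, against 3 without the WT1 siRNA array of number 3.

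Receptor tyrosine kinases fell in 6 of 39 cases (15.4%, close to the 15% of all genes) and rose in 2, PDGFRA, given above, and RET (0.22, adjusted p = 0.0214). When any one array of number 1 was left out 1 member rose, and without the WT1 siRNA array of number 3 there were 6. AXL, the receptor for GAS6, was at 10.25, 10.47 and 10.44 in number 1 and at 11.22, 11.40 and 11.53 in the others, a difference of −1.01 (SE 0.09, adjusted p = 0.000428, 2.01-fold), and its second probe set did not pass (−0.17). KIT fell by 0.70 (adjusted p = 0.00104) and EGFR by 0.63 (adjusted p = 0.0063). FGFR1 fell by 0.64 in its brightest probe set (adjusted p = 0.000894), but another rose by 0.42 (adjusted p = 0.014) and 4 did not pass. Of 6 called receptors with another probe set, 1 had one called the same way and 2 one called the opposite way. PDGFA, a ligand of PDGFRA, fell by 0.63 (adjusted p = 0.0109).

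The called genes of cell division were mostly higher in culture number 1. Those of DNA replication were lower, at a share not above that of all genes in the brighter groups. Of 42 measured genes of G2/M and mitosis, 13 rose (31%, against 9.63% of all genes) and 1 fell, with a median of 0.15. Of 43 genes of G1/S and DNA replication, 9 fell (20.9%, against 15%) and 0 rose, with a median of −0.09. In groups 4 and 5 by level 27.7% and 21.5% of all genes fell. Against number 2 alone 11 of the 43 fell and 8 rose (over all genes 23.7% and 15.4%), with a median of −0.04. Against number 3 alone 18 fell and 3 rose (21.8% and 17.3%), with a median of −0.185. The difference between these lists was not tested.

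MKI67, the proliferation marker Ki-67, was at 10.24, 10.34 and 10.43 in number 1 and at 9.76, 9.86 and 10.00 in the others, a rise of 0.47 (SE 0.06, adjusted p = 0.00125). Its other 3 probe sets rose by 0.24 to 0.58. CCNB2, a mitotic cyclin, was at 11.32, 11.26 and 11.22 against 10.79, 10.83 and 10.98 and rose by 0.40 (adjusted p = 0.00323). KIF2C, a kinesin that depolymerises microtubules, rose by 0.33 (adjusted p = 0.00286) and CENPA, the histone of the centromere, by 0.37 (adjusted p = 0.00598). PLK1, a kinase of mitotic entry, rose by 1.22 (adjusted p = 0.0182). The member that fell was FOXM1, the transcription factor of this gene set (−0.34, adjusted p = 0.0245).

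Against number 2 alone 15 mitotic genes rose and 2 fell (over all genes 15.4% and 23.7%). Against number 3 alone 21 rose and 4 fell (17.3% and 21.8%). After quantile normalisation 17 rose and 0 fell. Without the WT1 siRNA or the scrambled siRNA array of number 1 the count of higher genes was 4, without its reagent array 9, and with the covariate 11, with 4 lower, where MKI67 (0.36), CCNB2 (0.45), KIF2C (0.36) and CENPA (0.099) did not pass.

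BRCA1, a repair gene expressed in S phase, was at 7.80, 7.80 and 7.86 in number 1 and at 8.22, 8.45 and 8.60 in the others, a difference of −0.60 (SE 0.07, adjusted p = 0.00103), with a second probe set that did not pass (−0.04). MCM10, which starts replication forks, was at 7.28, 7.24 and 7.29 against 7.65, 7.74 and 8.01, a difference of −0.52 (adjusted p = 0.00164). UNG, the uracil glycosylase, fell by 0.54 and CHAF1A, a histone chaperone of replication, by 0.31 (adjusted p = 0.00199 and 0.00746). CHAF1A did not pass without the scrambled siRNA array of number 1 (adjusted p = 0.0556). The number of lower replication genes was 4 without the scrambled siRNA or the reagent array of number 1, and after quantile normalisation 5 fell and 3 rose. With the covariate MCM10 did not pass (−0.47).

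Splicing factors fell in 11 of 44 cases (25%) and rose in 4, with a median of −0.12. The share that fell was 15% over all genes, but 27.7% and 21.5% in groups 4 and 5 by level. PNISR, a nuclear protein with arginine and serine repeats, was at 8.07, 8.08 and 8.11 in number 1 and at 8.62, 8.83 and 8.94 in the others, a difference of −0.71 (SE 0.08, adjusted p = 0.000871), and its other probe sets fell by 0.84 and 0.34. LUC7L3, of the U1 particle, fell by 0.50 (adjusted p = 0.00106), and its other probe sets by 1.18 and 0.62. CLK4, a kinase of splicing factors, fell by 0.51 (adjusted p = 0.00184). SF3A1, of the U2 particle, fell by 0.56 (adjusted p = 0.000568), while its other 2 probe sets did not pass. The 4 that rose were U2AF1 (0.46), PNN (0.35), SRSF5 (0.25) and HNRNPC (0.19). Of 12 called members with another probe set, 3 had one called the opposite way, and with the covariate 6 fell and 5 rose, where PNISR did not pass (−0.37). Without the WT1 siRNA array of number 1, 7 fell, and without the scrambled siRNA or the reagent array of number 3, 2 rose.

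**Figure D5:**
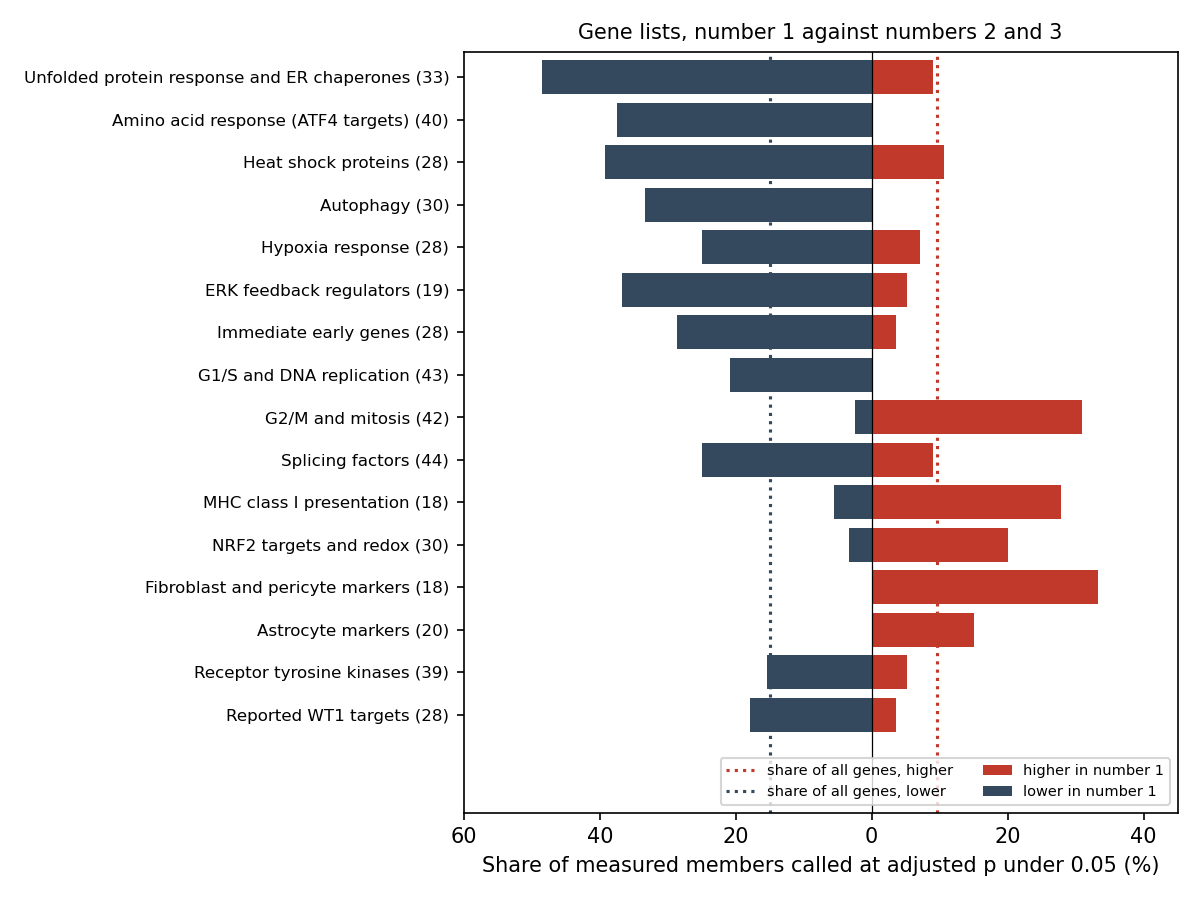
Share of the measured members of 16 gene lists that were lower (left) or higher (right) in culture number 1 at an adjusted p under 0.05, with the number measured in brackets. Dotted lines give the shares over all 11963 genes, 15% lower and 9.63% higher. The unfolded protein response list has the largest lower share (48.5%) and the fibroblast and pericyte list the largest higher share (33.3%) of the 16.

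Genes of MHC class I presentation rose in 5 of 18 cases (27.8%, against 9.63% of all genes) and fell in 1, with a median of 0.05. PDIA3, which rose, and CANX, which fell, also load class I molecules and are counted here as well as above. HLA-G was at 10.08, 10.18 and 9.99 against 9.58, 9.66 and 9.83, a rise of 0.41 (adjusted p = 0.00216). HLA-F was at 9.94, 10.21 and 9.92 against 9.33, 9.52 and 9.75, a rise of 0.50 (adjusted p = 0.0121). Of its other probe sets, 1 rose by 0.46 and another did not pass (0.10). HLA-B rose by 0.36 (adjusted p = 0.0299). The class I genes are near-identical in sequence, so these probe sets may share transcripts. With the covariate HLA-F (−0.089) and HLA-G (0.25) did not pass, and 2 members of the list rose and 5 fell. Without the WT1 siRNA, scrambled siRNA and reagent array of number 1 in turn, 3, 2 and 3 members rose, and HLA-F did not pass in the last 2 cases (adjusted p = 0.0801 and 0.0704).

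Targets of NRF2, the regulator of the oxidative stress response, rose in 6 of 30 cases (20%, against 9.63% of all genes). The list median was 0.07, and 1 member fell, SQSTM1 (−0.49, adjusted p = 0.0306). PRDX1, a peroxidase, was at 12.82, 12.86 and 12.97 against 12.59, 12.62 and 12.67, a rise of 0.26 (adjusted p = 0.0112). TALDO1, of the pentose phosphate pathway, rose by 0.25 (adjusted p = 0.0231), and AKR1B10, an aldo-keto reductase, by 0.48 with overlapping ranges (adjusted p = 0.026). GSTM1, which has near-identical paralogs, rose by 0.45 (adjusted p = 0.0174) and was at −0.054 with the covariate. The count of higher genes was 0 without the scrambled siRNA or the reagent array of number 1 (adjusted p of these 4 genes 0.0544 to 0.147) and 3 without the reagent array of number 3, and with the covariate 2 rose and 6 fell, where PRDX1 (0.27), TALDO1 (0.25) and GSTM1 did not pass. AKR1B10 and GSTM1 also did not pass without the WT1 siRNA array of number 1 (adjusted p = 0.106 and 0.0908), AKR1B10 without the scrambled siRNA array of number 3 (0.052) and TALDO1 without the reagent array of number 3 (0.05002).

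The markers of the line and of other cell types were read for the identity of the cultures. VIM (13.57 to 13.69 in number 1 and 13.61 to 13.71 in the others) and CD44 (13.13 to 13.25 and 12.85 to 13.15) were among the brightest genes in all 9 arrays and did not pass, although 6 of the 7 other CD44 probe sets rose. With the 3′ to 5′ covariate the brightest CD44 probe set passed (0.46). GFAP, the filament protein of astrocytes, was at 6.96, 5.84 and 6.79 in number 1, at 5.36, 5.54 and 6.68 in number 2 and at 8.13, 7.99 and 9.26 in number 3. In this probe set number 1 thus lay near number 2 and below every array of number 3. The difference from number 2 was 0.67 (adjusted p = 0.0488) and that from number 3 was −1.93 (adjusted p = 0.000257). Against both together GFAP did not pass (−0.63, adjusted p = 0.612). A dimmer GFAP probe set had the opposite sign against both together and did not pass (0.23, adjusted p = 0.0862).

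SOX2, a factor of neural stem cells, was at 9.09, 8.24 and 8.49 in number 1, at 7.79, 7.15 and 7.61 in number 2 and at 8.98, 8.20 and 8.67 in number 3. It was higher than in number 2 by 1.09 (adjusted p = 2.19e-05) and not separable from number 3 (−0.01, adjusted p = 0.961), and a dimmer probe set rose against both together by 1.43 (adjusted p = 0.00271). NES, the filament nestin, lay between the other numbers, higher than number 2 by 0.51 and lower than number 3 by 0.47 (adjusted p = 0.000526 and 0.000815), so its difference of 0.02 against both together did not pass. With the covariate SOX2 turned to −1.37 and NES to −1.68, and both passed there, as did GFAP (−4.92).

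Of 20 astrocyte markers, 3 rose (15%, against 9.63% of all genes) and 0 fell. The 3 were S100B (5.69, 4.83 and 5.16 against 4.47, 4.64 and 4.76, a rise of 0.60, adjusted p = 0.0188), ALDOC (0.24, adjusted p = 0.0194) and MLC1 (0.29, adjusted p = 0.0195). When any one array of number 1 was left out, 1 of them rose (adjusted p of the calls lost 0.0601 to 0.12). With the covariate ALDOC (0.27) and MLC1 (0.20) did not pass.

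Genes that mark fibroblasts and pericytes, which glioma cells with a mesenchymal pattern also express, rose in 6 of 18 cases (33.3%, against 9.63% of all genes). Of the list 0 fell, and the median was 0.20. THY1 was at 10.50, 10.59 and 10.05 in number 1 and at 9.38, 9.69 and 9.99 in the others, a rise of 0.67 (adjusted p = 0.00394). Of its other probe sets, 1 rose by 0.32 and another did not pass (0.34). S100A4 was at 8.05, 8.35 and 7.94 against 7.29, 7.46 and 7.84, a rise of 0.61 (adjusted p = 0.00154). COL1A1 was at 8.23, 8.10 and 8.25 against 7.46, 7.69 and 7.72, a rise of 0.54 (adjusted p = 0.00214), while its other 3 probe sets did not pass. DES rose by 0.23 (adjusted p = 0.0246), and its dimmer probe set did not pass (0.02). Without the WT1 siRNA, scrambled siRNA and reagent array of number 1 in turn, 4, 3 and 3 members rose, and DES was in each case not called (adjusted p = 0.0541 to 0.132), nor without the reagent array of number 2 (adjusted p = 0.0535) or with the covariate (0.33). The mean level of the list was 6.37 to 6.39 in number 1 and 6.03 to 6.27 in the others. LUM, a defining marker of fibroblasts, was among the dimmest genes (3.46 to 3.58 and 3.54 to 3.63), and DCN, another, did not pass in its brightest probe set (5.94 to 6.08 and 5.54 to 5.93, adjusted p = 0.0525), although the ranges did not overlap and a further probe set rose by 0.425 (adjusted p = 0.0295).

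Defining markers of other cell types did not pass in their brightest probe sets, and most were dim in all arrays. PTPRC (leukocytes) was at 4.54 to 4.73 in number 1 and 4.49 to 4.61 in the others, CDH5 (endothelium) at 4.38 to 4.44 and 4.22 to 4.44 (0.08, and −0.20 with the covariate), and EPCAM (epithelium) at 4.25 to 4.29 and 4.17 to 4.49. RMA values have no true 0, so these levels are background or close to it. PECAM1 (endothelium, 5.79 to 5.83 and 5.45 to 5.72) and SYP (neurons, 5.43 and 5.27 to 5.40) lay higher in number 1 without overlap. PECAM1 passed against number 3 alone (0.23, adjusted p = 0.0232). SNAP25 (neurons) was brighter, at 6.51 to 6.70 and 6.37 to 6.52, and its dimmer probe set had the opposite sign and did not pass (−0.32). A dimmer probe set of MBP (oligodendrocytes) rose by 0.24 (adjusted p = 0.0158). The mean level of the leukocyte list was 5.58 to 5.59 in number 1 and 5.42 to 5.62 in the others, that of the endothelial list 5.40 to 5.45 and 5.25 to 5.38, and that of the epithelial list 5.69 to 5.80 and 5.63 to 5.74. Whether other cells had a part in any result was not tested.

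Of 28 genes reported in the literature as WT1 targets, 5 fell (17.9%) and 1 rose, against 15% and 9.63% of all genes, with a median of −0.06. CCN3, a secreted matricellular protein, was at 6.71, 7.18 and 6.76 in number 1 and at 7.80, 7.90 and 8.26 in the others, a difference of −1.11 (SE 0.05, adjusted p = 6.45e-05). Its second probe set fell by 0.79. ETS1, a transcription factor of invasion and vessel growth, was at 6.81, 6.77 and 6.28 against 5.53, 5.66 and 5.86, a rise of 0.95 (adjusted p = 0.000474). BASP1, EGR1, EGFR and PDGFA, given above, were the others that fell. Of 4 called members with another probe set, 1 had one called the same way and 1 the opposite way.

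Some lists gave different counts against number 2 and against number 3, a difference that was not tested. Over all genes 15.4% were higher and 23.7% lower than in number 2, and 17.3% and 21.8% than in number 3. Of 24 genes of cholesterol synthesis and uptake, 10 were higher and 4 lower than in number 2 (median 0.06), and 2 were higher and 17 lower than in number 3 (median −0.54). Against both together 1 rose and 2 fell. Of 27 genes of ribosome biogenesis and MYC targets, 16 were lower than in number 2 and 7 lower than in number 3, and 6 fell against both together. Cytosolic ribosomal protein genes had a median near 0 (0.000775 over 52 genes), with 2 higher and 2 lower.

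The share of called genes moved with gene length and chromosome. The median gene length in the RefSeq table was 17500 bases for the genes that were higher in number 1, 45200 for those lower and 28800 for all. With genes placed in 5 groups by length, 13.4% of the shortest group were higher and 7.19% lower, and 6.4% and 19.7% of the longest. Against number 2 alone the share higher went from 23.2% in the shortest group to 8.91% in the longest, and against number 3 alone from 19.5% to 16.1%. Of the 507 measured genes of chromosome 5, 27 were higher (5.33%) and 147 lower (29%), with a median of −0.08, while of the 810 of chromosome 19, 110 were higher (13.6%) and 77 lower (9.51%). Higher genes were also dimmer than lower genes (median level 6.44 against 8.25), so that length, place and level were not separated.

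Probe sets of one gene did not always give the same answer. Of 1246 called genes with a further probe set, 453 (36.4%) had another called in the same direction and 127 (10.2%) another called in the opposite direction. Probe sets lie at different places along a transcript, and the 3′ to 5′ difference of the controls moved with the number. The part of probe position in these differences was not tested.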

How the data were processed

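Total RNA of 9 U251 cultures (5 ug each, Trizol) was labelled as biotin cRNA and hybridised to Affymetrix arrays. Per the submitters' processing notes, the authors applied RMA; each deposited value is a log2 level of a probe set, normalised between arrays. The sources used here give neither software nor genome build. Of 22277 probe sets deposited, 62 controls were used for quality only, 2108 with no symbol and 1043 with several were left out, and 19064 were tested.

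Limma 3.58.1 in R 4.3.3 was fitted to the log2 values with treatment as a factor and a term for number 1, two-sided, so that the difference between numbers 2 and 3 stayed in the residual spread. Benjamini-Hochberg adjustment ran over the 19064 probe sets, and genes with an adjusted p under 0.05 are said to differ, rise or fall. Number 1 against number 2 or 3 alone came from a fit with 3 levels of the number. On simulated data with 19064 probe sets, 45% of changes of 0.5 and 91% of changes of 1 (log2) were recovered, with 0 false calls. There, numbers 2 and 3 differed from each other, but number 1 had no shift of its own outside the changed probe sets. The 0 false calls therefore do not show how often a call is false in these data. The 13 control values were compared with exact permutation tests, and 1 of them is not reported here.

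Named by rule were WT1, ADGRE5, the 12 largest rises and 12 largest falls among called genes without overlap between the arrays, and in each described list up to 4 called members with the smallest p. ASNS, ATF3, XBP1, DNAJB6, TRIB3, DDIT3, DDIT4 and further list members whose level by array is not given were chosen after their values were seen. The comparison and all 54 lists were chosen with earlier results of these data known, and the 16 lists described were picked after their counts were seen. Lists are described by counts and medians, with no set test. Promoters came from RefSeq for 9563 of the 11963 genes. Figures were drawn with matplotlib 3.10.9.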

Additional observations from a re-analysis of the deposited data

Results flagged for a closer look

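Among the 26 genes named as largest or always given and the 13 control values, 39 in all, the 6 arrays of numbers 2 and 3 were screened for an array far from the rest. In 3 genes the gap to the nearest array, as a share of the range, exceeded 0.625, the limit for 6 arrays, and chance passes about 1 in 20 such groups. For TERF1 the ratio was 0.806: the WT1 siRNA array of number 3 stood at 8.94 and the other 5 at 9.05 to 9.07. For GTF2H4 it was 0.692, with the WT1 siRNA array of number 3 at 5.90 and the rest at 5.53 to 5.65. For ARMCX1 it was 0.662, with the reagent array of number 2 at 7.02 and the rest at 7.38 to 7.56. All 3 arrays of number 1 lay beyond these values in each gene, as the choice of these genes required.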

How the results depend on the processing

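No paired analysis was possible because the comparison is between the replicate numbers themselves, which therefore cannot also be a replicate block; the treatment factor matches the arrays across numbers, and without it 4738 probe sets were called against 4686 (2068 higher, 2618 lower). With 3 levels of the number 8092 were called (3774 higher, 4318 lower). Without number 3 there were 7743 (3518 and 4225), without number 2 5885. Leaving out a treatment group gave 3156 (1314 higher) without the WT1 siRNA, 1679 (527 and 1152) without the scrambled siRNA and 1249 (429 and 820) without reagent. Leaving out 1 array gave 1963 to 5259 (716 to 2401 higher, 1247 to 2858 lower). A minimum difference of 0.2 left 1195 (363 and 832), 1 probe set per gene 2947 (1155 higher), by the smaller number tested, and the brighter probe sets 997 higher. With the 3′ to 5′ covariate the values that turned were WT1 (0.59), CDH5 (−0.20) and CDH1 (−0.065), called in neither fit, and BSG (−0.24), EPHX1 (−0.60), HLA-F (−0.089), GSTM1 (−0.054), NES (−1.68) and SOX2 (−1.37); NES also turned without number 2 (−0.47). The cause was not tested. The share of the sum of squares for number 1 stayed between 45.3% and 47.6% over median centring, quantile normalisation and the brighter probe sets, and the interaction gave 0 calls in each. The limits of the interaction test given above hold in each. The scalings and the filter for number 1 against 2 or 3 alone, and quantile normalisation for the interaction, were added after seeing the data. For number 1 against 2 or 3 alone they gave 5083 to 7644 calls against 7391 and 7371.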
